A study of Mus musculus with 36 samples.

Results

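The response of Pax5-null pro-B cells to wild-type Pax5 was read from the mRNA of cells that received a retrovirus carrying Pax5 (Pax5WT) and of cells that received the vector without Pax5 (EV). Of the 35896 genes listed for the Pax5-/- cultures, the 12960 with a value of 10 or more in 2 or more of the 4 libraries compared (EV replicates 1 and 2, Pax5WT replicates 1 and 2) are described. A normalized count is an estimated number of sequenced fragments per gene, scaled so that libraries can be compared. Of these genes, 152 reached 10 only in Pax5WT libraries and 113 only in EV libraries, so for them passing this minimum and differing between the groups are not independent.

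The study, whose series holds 36 samples, addressed how the deacetylase Sirt7 acts on Pax5 in B cell progenitors. All 4 libraries came from mouse Pax5-/- Lin-B220+IgM- pro-B cells, cultured with IL-7, SCF and FLT3-L on OP9 cells, a mouse bone marrow stromal line that had been treated with mitomycin C so that it no longer divided. Per the study's methods, infected cultures were sorted by human CD4, a marker carried on the vector. The labels name cultured bone marrow pro-B cells, whereas the study's methods name fetal liver as the source of the Pax5-/- progenitors, on a C57BL/6 background. Libraries of the same cells with Pax5K198Q or Pax5K198R were used for comparison, forms in which a lysine was replaced by glutamine or arginine to stand for its acetylated or unacetylated state. Cultured Sirt7-/- pro-B cells with EV or Pax5WT, which keep their own Pax5 gene and whose vectors are described with GFP as the marker, and cultured wild-type pro-B cells with EV were read from a separate table. Per the study's text, Sirt7-/- mice of the 129Sv background were used for most experiments and their pro-B cells came from bone marrow, so the cells of that table differ from Pax5-/- cells in strain and tissue of origin as well. Each group had 2 libraries, which per the study's methods were made on different days. The p-values rest on the spread between the 2 libraries of a group, pooled over all 8 libraries fitted together and moderated across genes. An exact permutation test of 2 against 2 cannot give p below 0.333, so each gene was tested with limma across all genes.

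Pax5 is a paired-domain transcription factor that is present from the pro-B cell to the mature B cell. It activates genes of the pre-B cell receptor and its adaptors, and it represses genes of T, NK and myeloid cells. Without it, B cell development stops at the pro-B stage, and the arrested cells can still grow in IL-7 and give rise to other lineages.

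Pax5 transcript came first as a check of the labels. Normalized counts of Pax5 (chr4:44524757-44710487, GRCm38, minus strand) were 2201 and 2103 in EV and 6458 and 6152 in Pax5WT. The groups did not overlap, and the mean was 2.93-fold higher in Pax5WT (log2 fold change 1.55 ± 0.118 SE, adjusted p = 0.000789, limma). Pax5 reads were thus present in EV libraries of cells labelled Pax5-/-, and whether they came from the disrupted gene was not tested. In the separately normalized table, cultured wild-type pro-B cells with EV had 23862 and 27134 normalized counts of Pax5.

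Genes that were higher with wild-type Pax5 included Blnk, Cd79a, Vpreb3, Rag1 and Rag2, and genes that were lower included Itgb7, Cd7 and Il2rb. A gene was called when its adjusted p was below 0.05 and its log2 fold change was at least 1.5 in size, and it is said below to have risen or fallen where the adjusted p alone was below 0.05. Of the 12960 genes, 166 were called higher and 35 lower. Among all 13345 genes tested in the 8 libraries of the table, 1.52% were called, 1.26% as higher and 0.262% as lower. By adjusted p alone 298 rose and 134 fell, against 2.25% and 1% of all genes tested (3.25% in either direction), and 1890 passed an unadjusted p of 0.05. The median log2 fold change was 2.77 over the genes called higher (range 1.52 to 8.97), -1.88 over those called lower (-6.97 to -1.504) and 0.00 over all 12960. At least 3 on the log2 scale separated the groups for 72 of the genes called higher and for 5 of those called lower. Of the genes called higher, 49 reached 10 only in Pax5WT and 43 had a mean of at least 100 in EV. Of the genes called lower, 29 had a mean of at least 100 in EV and 5 reached 10 in EV libraries only.

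Normalized counts summed to 29380367 and 29733473 in the EV libraries and to 29042943 and 29434845 in the Pax5WT libraries. The distance between libraries on the log2 scale, over the 12960 genes, was 56.9 within EV and 57.1 within Pax5WT, and it was 79.0 to 90.1 between the groups. The libraries of EV and Pax5WT did not overlap in 42.6% of all genes tested, so separation of the 4 values alone was common. The number of calls depended on every library. It was 89 higher and 2 lower without EV replicate 1, 112 and 2 without EV replicate 2, 82 and 9 without Pax5WT replicate 1, and 64 and 3 without Pax5WT replicate 2, where a lone library was assumed to vary like those of the other groups. With the replicate number as a block, 213 genes were called higher and 106 lower, and by adjusted p alone 665 rose and 672 fell.

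**Figure D1:**
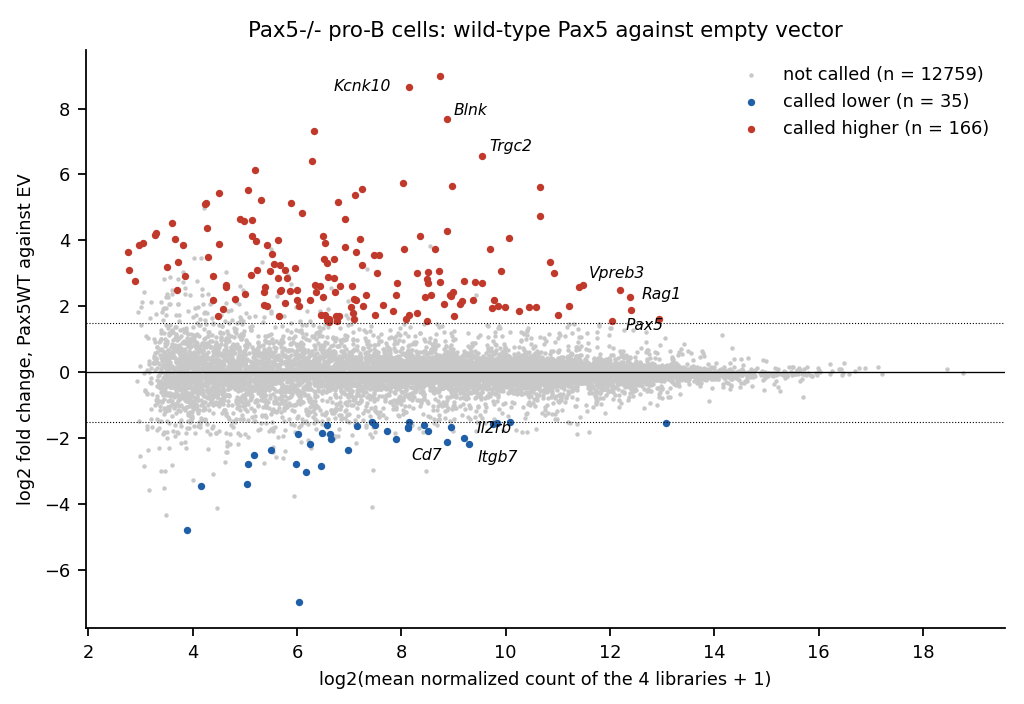
Each point is 1 of the 12960 genes, with the log2 of its mean normalized count (+ 1) over the 4 libraries on the x axis and its log2 fold change, Pax5WT against EV, on the y axis. The 166 genes called higher (red) reach 8.97 above 0, the 35 called lower (blue) reach -6.97, and dotted lines mark a log2 fold change of 1.5 in either direction.

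Among pre-B cell receptor components and proximal signalling genes, 8 of 22 rose and 2 fell, with a median log2 fold change of 0.31 against 0.00 over all genes. Blnk, the adaptor that links Syk to downstream signalling from the receptor, had 2.56 and 4.90 normalized counts in EV and 915 and 954 in Pax5WT. Each Pax5WT value lay far above both EV values. The fold of the mean was 250.3 (log2 fold change 7.67 ± 0.268 SE, adjusted p = 5.13e-05), and the log2 value depends on the 1 that was added to each count.

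Vpreb3, which encodes a chaperone of the immunoglobulin light chain, had 733 and 813 normalized counts in EV and 4163 and 5200 in Pax5WT (log2 fold change 2.59 ± 0.124 SE, adjusted p = 0.000146). Cd79a, a signalling chain of the receptor, had 2282 and 2247 in EV against 7561 and 9491 in Pax5WT (1.90 ± 0.113 SE, adjusted p = 0.000245). Its partner Cd79b had 4094 and 4267 against 5365 and 6197, a much smaller difference (0.46 ± 0.0975 SE, adjusted p = 0.0490). Igll1, Vpreb1a and Vpreb1b encode the surrogate light chain. Igll1 had 9646 and 13144 normalized counts in EV and 23881 and 25754 in Pax5WT (1.14 ± 0.142 SE, adjusted p = 0.00662), and Vpreb1a and Vpreb1b rose by 0.85 ± 0.145 SE and 0.93 ± 0.184 SE (adjusted p = 0.0238 and 0.0403). Vpreb1a and Vpreb1b are near-identical copies, so how reads were divided between them is uncertain.

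The 2 members of this list that fell were Rasgrp3, a Ras activator, and Ptpn6, which encodes the phosphatase SHP-1. Rasgrp3 had 1939 and 2077 normalized counts in EV and 851 and 1166 in Pax5WT, and Ptpn6 had 4371 and 4328 against 2790.0 and 2825 (adjusted p = 0.0339 and 0.0471). Ighm, the heavy chain gene, had overlapping groups, with 35821 and 39098 in EV and 37847 and 34802 in Pax5WT (log2 fold change -0.04, adjusted p = 0.932). The kinase genes Syk (log2 fold change -0.06, adjusted p = 0.943) and Btk (0.22, adjusted p = 0.303) did not pass the test. Blnk, Cd79a and Vpreb3 rose whichever of the 4 libraries was left out. In each of these fits fewer genes of the list rose, and the 2 that had fallen did not pass. Over all genes fewer rose and fewer fell as well.

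Anti-Pax5 ChIP-seq of Pax5-/- cells that expressed Pax5WT gave peaks near several of these genes. Genes of the receptor list that did not pass had such peaks too. Examples are Cd22 (summit 72 bp past the start, 23.6-fold and 24.5-fold over input) and Syk (8.58-fold and 6.67-fold). Genome sequence of 100 bases centred on peak summits is shown for genes that passed the expression test and had tall peaks outside annotated exons, and for Erg, whose window was added after the values were seen because it holds a searched motif. Coordinates are those of GRCm38 (mm10), plus strand, and capitals in the Erg window mark GCGTGAC, letters found in the core of the motif bound by the paired domain.
Igll1, chr16:16864075-16864174: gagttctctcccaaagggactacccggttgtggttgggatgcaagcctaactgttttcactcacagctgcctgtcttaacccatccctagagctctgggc
Vpreb3, chr10:75949779-75949878: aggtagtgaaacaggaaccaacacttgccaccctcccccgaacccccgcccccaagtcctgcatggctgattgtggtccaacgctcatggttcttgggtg
Blnk, chr19:40996280-40996379: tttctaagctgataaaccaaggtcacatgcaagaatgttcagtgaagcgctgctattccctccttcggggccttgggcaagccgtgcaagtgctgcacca
Rag1, chr2:101648552-101648651: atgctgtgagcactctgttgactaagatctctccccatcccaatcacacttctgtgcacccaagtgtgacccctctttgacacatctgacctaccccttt
Erg, chr16:95459554-95459653: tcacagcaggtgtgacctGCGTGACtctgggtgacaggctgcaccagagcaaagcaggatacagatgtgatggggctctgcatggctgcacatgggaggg
Spry1, chr3:37640962-37641061: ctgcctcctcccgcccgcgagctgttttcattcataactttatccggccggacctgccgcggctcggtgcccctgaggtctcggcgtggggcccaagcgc
The summit at Igll1 lay at -140 bp from the transcript start and was enriched 33.4-fold over input in replicate 1 and 20.5-fold in replicate 2. At Vpreb3 it lay 1529 bp past the nearest start, beyond the end of the gene (27.8-fold and 12.5-fold). The window shown for Blnk lay at -1795 bp (10.7-fold and 5.91-fold), and a taller Blnk peak, not shown because its window meets an exon, had its summit at -89 bp (15.9-fold and 23.5-fold). The window within Rag1 also lies inside B230118H07Rik, and those in Erg and Spry1 lie within these genes alone. The other windows hold neither these letters nor GCATGAC, a variant of them, nor the palindromic Ebf motif, on either strand.

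Among B lineage transcription factors, 6 of 19 rose and none fell in limma, with a median log2 fold change of 0.40. At an unadjusted p below 0.05, 9 were higher and 1 lower, against 1890 of all 12960 genes in either direction. Ikzf3, which encodes Aiolos, had 123 and 127 normalized counts in EV and 627 and 639 in Pax5WT (2.33 ± 0.138 SE, adjusted p = 0.000245). Ebf1, the factor that acts with Pax5 in B cell specification, had 2760 and 3007 in EV and 6469 and 7608 in Pax5WT (1.28 ± 0.121 SE, adjusted p = 0.00180). Lef1 had 1092 and 830.2 against 3114 and 3196 (1.73 ± 0.250 SE, adjusted p = 0.0130), and Erg, Bach2 and Foxo1 rose by 0.93, 0.86 and 0.71 (adjusted p = 0.00765, 0.00787 and 0.00541). In none of the 6 did EV and Pax5WT libraries overlap, which was also so in 42.6% of all genes tested and which passing the test favours. Tcf3, which encodes E2A, had 5505 and 5974 in EV and 5475 and 5987 in Pax5WT, and Irf4 had 1519.6 and 768 against 2392 and 2091 (log2 fold change 1.05 ± 0.380 SE, adjusted p = 0.239). Fewer of the 19 rose when any 1 of the 4 libraries was left out, as was so over all genes. Ebf1 and Ikzf3 alone rose without Pax5WT replicate 1 and without Pax5WT replicate 2.

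Of 10 genes of V(D)J recombination and end joining, 2 rose, and the median log2 fold change was 0.07. Both were recombinase subunits. Rag1 had 1443 and 2289 normalized counts in EV and 8938 and 8704 in Pax5WT (2.28 ± 0.199 SE, adjusted p = 0.00134). Rag2 had 195 and 298 against 862 and 709 (1.69 ± 0.214 SE, adjusted p = 0.00709), and it did not pass without Pax5WT replicate 1, where of this list Rag1 alone passed. Dntt, the terminal transferase that adds bases at V(D)J joints, was low throughout, with 3.62 and 1.85 in EV and 19.0 and 20.3 in Pax5WT (log2 fold change 2.51 ± 0.659 SE, adjusted p = 0.1004).

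Cytokine receptor and STAT genes moved in both directions, where 2 of 15 rose and 2 fell, with a median of -0.06. Il7r, the receptor chain for the cytokine in the medium, had 1286 and 1293 normalized counts in EV and 3614 and 3058 in Pax5WT (1.37 ± 0.154 SE, adjusted p = 0.00414). Il2ra, which encodes CD25, had 5980 and 5550 in EV and 10146 and 10179 in Pax5WT (0.82 ± 0.0903 SE, adjusted p = 0.00377), but it did not pass without Pax5WT replicate 2. Il2rb, a receptor chain of NK and T cells, had 955 and 914 against 229.7 and 240.2 (-1.99 ± 0.254 SE, adjusted p = 0.00753). The other gene that fell was Stat3 (6661 and 6835 against 5148 and 4266, adjusted p = 0.0399). Neither Il2rb nor Stat3 passed when any 1 of the 4 libraries was left out.

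**Figure D2:**
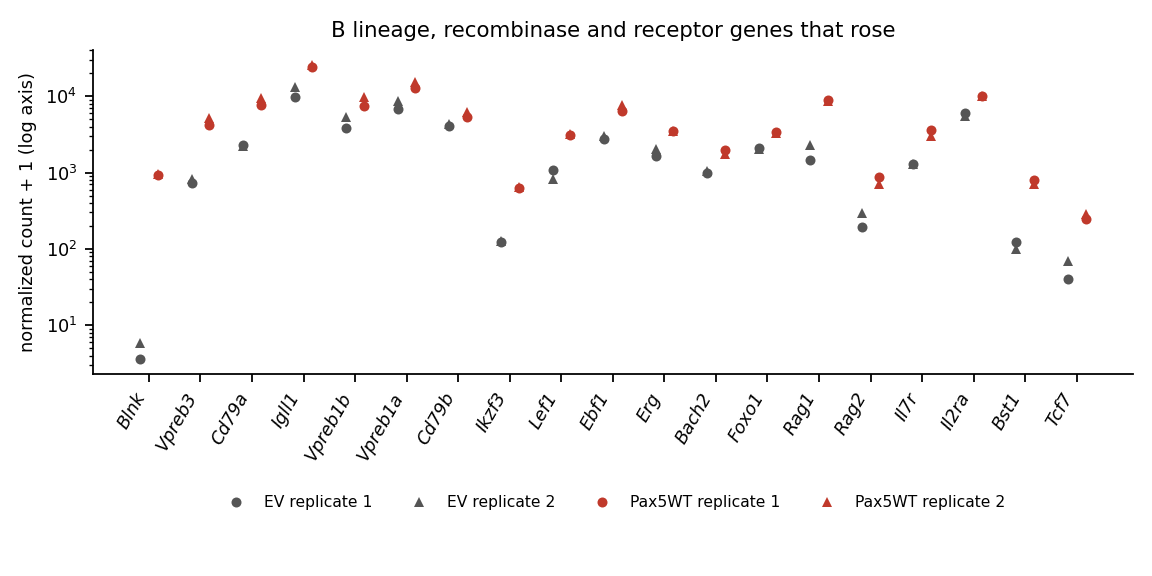
Normalized count + 1 on a log axis for genes of the receptor, transcription factor, recombinase, cytokine receptor, adhesion and T lineage lists that rose (not every such gene is drawn), with EV in grey and Pax5WT in red, circles for replicate 1 and triangles for replicate 2. The widest gap is at Blnk (2.56 and 4.90 against 915 and 954), and in every gene plotted both Pax5WT libraries lie above both EV libraries. The same was so in 21.3% of all genes tested.

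Several of the largest changes were in genes outside the lists. Taking the 12 genes with the largest change among those with a mean of at least 100 in the higher group and no overlap between groups, Blnk was among them. Kcnk10, a potassium channel gene, had 0.904 and 0 normalized counts in EV and 671 and 462 in Pax5WT (adjusted p = 0.000146). Arhgef33, a guanine nucleotide exchange factor gene, was listed at 0 in both EV libraries and at 168 and 149 in Pax5WT (adjusted p = 0.000128). Trgc2, a constant region gene of the T cell receptor gamma chain that is one of several similar copies, had 15.0 and 14.0 in EV and 1259.5 and 1717 in Pax5WT (6.57 ± 0.357 SE, adjusted p = 0.000187). In EV libraries these 3 genes lay between 0 and 15.0. With such low EV values the fitted log2 fold change depends on the added constant, and between an added 10 and an added 0.5 it ran from 5.76 to 9.38 for Kcnk10 and from 4.07 to 8.31 for Arhgef33.

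The calcium channel gene Cacna1h had 23.2 and 14.3 normalized counts in EV and 845 and 1116 in Pax5WT. Rtn4rl2, a Nogo receptor family gene, had 4.80 and 14.3 against 442 and 584, and the collagen gene Col27a1 had 1.51 and 14.2 against 326 and 259.9. Trmt9b, Pcp4, Prxl2a and Mtcl1 had at most 5.95 in EV and 97.1 to 281 in Pax5WT. All 7 were called, with adjusted p from 0.000287 (Prxl2a) to 0.00984 (Col27a1) in limma. Col27a1 did not pass without Pax5WT replicate 1 or without Pax5WT replicate 2. The largest fitted value of all, 8.97, belonged to a pseudogene outside this rule, ENSMUSG00000100131, named after its values were seen, which was listed at 0 in both EV libraries and had 1554 and 162 in Pax5WT, so its 2 Pax5WT libraries differed widely.

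Of the genes called lower, the 12 chosen in the same way included Serpinb9d, Gpr141, Muc1, Fam135b, Adgrg5, Dsp, Tmem51, Cd300ld and Jaml besides Itgb7, Cd7 and Il2rb. Serpinb9d, of the serine protease inhibitor family and one of several similar copies, had 116 and 138 normalized counts in EV and 21.7 and 9.99 in Pax5WT (-3.01 ± 0.568 SE, adjusted p = 0.0342). The integrin gene Itgb7 had 1122 and 933 against 272 and 188 (-2.17 ± 0.339 SE, adjusted p = 0.0172). Cd7, a surface protein of T and NK cells, had 735 and 796 against 203 and 149.8 (-2.13 ± 0.291 SE, adjusted p = 0.00977). The choice required groups that did not overlap, and in these 3 genes the mean in EV was 4.34-fold (Cd7) to 8.004-fold (Serpinb9d) that in Pax5WT. Of these 12 genes, Cd7 was the only one to pass in any fit that left out 1 of the 4 libraries, and it did so without Pax5WT replicate 1. The most negative fitted value, -6.97, belonged to ENSMUSG00000107705, also named after its values were seen, with 167 and 92.5 in EV and a listing at 0 in both Pax5WT libraries.

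**Figure D3:**
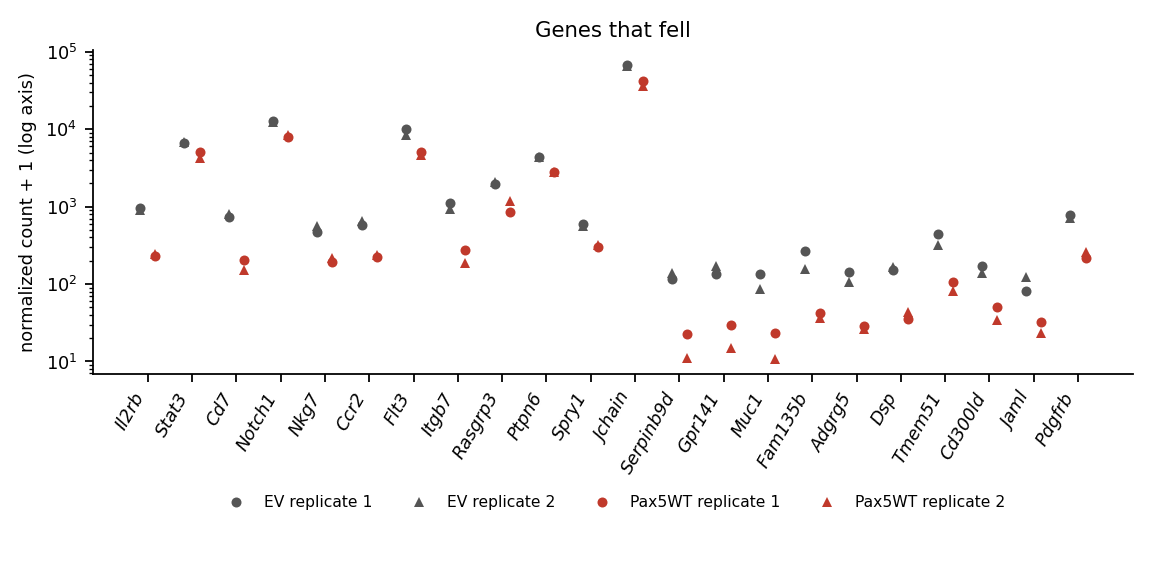
Normalized count + 1 on a log axis for genes that fell, with EV in grey and Pax5WT in red, circles for replicate 1 and triangles for replicate 2. Both Pax5WT libraries lie below both EV libraries in every gene plotted, as in Muc1 (133 and 84.1 against 22.1 and 9.61). The same was so in 21.3% of all genes tested.

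The lists of other lineages had medians below 0, but few of their genes passed the test. Of 19 T lineage and Notch genes, 1 rose and 3 fell, at a median of -0.62 on the log2 scale. At an unadjusted p below 0.05, 2 were higher and 9 lower, against 1890 of all 12960 genes in either direction. Besides Cd7, Notch1, the receptor that directs T cell fate, fell from 12888 and 12524 to 7875 and 8363 (-0.65 ± 0.125 SE, adjusted p = 0.0361), and so did the T cell receptor beta constant gene Trbc1, matched by its identifier ENSMUSG00000076490 (572 and 551 against 169 and 156, adjusted p = 0.0318). Tcf7, which encodes the T cell factor TCF1, went the other way, with 38.9 and 67.4 in EV and 246 and 284 in Pax5WT (2.34 ± 0.312 SE, adjusted p = 0.00838). Cd7 passed without Pax5WT replicate 1 but not without any of the other libraries. Tcf7 passed without EV replicate 1 or EV replicate 2 but not without either Pax5WT library. Notch1 and Trbc1 passed in none of these fits.

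Of 10 NK and cytotoxic genes, 1 fell, Nkg7 (468 and 569 against 192 and 219, adjusted p = 0.0225), and in 9 of the 10 both Pax5WT libraries were below both EV libraries, with a median of -1.28. In 21.3% of all genes tested both Pax5WT libraries were lower in this way. Of 13 myeloid genes, 1 fell and 1 rose, with a median of -0.75. The chemokine receptor gene Ccr2 had 576 and 656 normalized counts in EV and 224 and 234 in Pax5WT (adjusted p = 0.0493), while Lyz2, the macrophage lysozyme gene, had 49.0 and 34.7 against 126 and 155 (adjusted p = 0.0145). Flt3, the receptor for a cytokine in the medium, was the 1 of 11 progenitor genes that fell, from 10022 and 8343 to 5028 and 4626 (-0.92 ± 0.123 SE, adjusted p = 0.00844), and Kit did not pass (1933 and 1319 against 2549 and 2388, adjusted p = 0.276). Flt3 passed without EV replicate 2 and not without any of the other 3, Lyz2 passed without EV replicate 1 only, and Nkg7 and Ccr2 passed in none of these.

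Markers of other cell types were summed in each library to show what the cultures could hold. In bulk RNA, fewer cells of a type and less RNA per cell cannot be told apart. The 10 T cell markers, of which 4 reached the minimum, summed to 1035 and 1079.5 in EV and 440 and 436 in Pax5WT, with the beta constant gene the most abundant and Cd3e listed at 0 in all 4 libraries. The 8 NK cell markers summed to 783 and 559 in EV and 304 and 196 in Pax5WT, with Klrd1 the most abundant and Ncr1 listed at 0. The 10 myeloid cell markers summed to 5945 and 4049 against 1927 and 1328, most of it from Ly6c2 (4931 and 3316 against 1442 and 861, adjusted p = 0.215), with Elane and S100a9 listed at 0. The 1 myeloid cell marker that passed, Lyz2, rose, and with the replicate block 4 others, Ly6c2 among them (adjusted p = 0.0148), fell. These sums were lower in both Pax5WT libraries than in either EV library, and their part in the lower values of other genes was not tested.

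Stromal markers were summed because of the OP9 layer, although the sort for human CD4 selects cells that carry the vector. They summed to 3380 and 4462 in EV and to 2779 and 6943 in Pax5WT, with Fn1 the most abundant and Dcn and Lum listed at 0. Pax5WT replicate 2 therefore had the highest sum and Pax5WT replicate 1 the lowest. Of the 8 stromal genes that reached the minimum, 6 had a log2 fold change above 0 and 2 below, with a median of 0.52. None rose, and 1 fell, Pdgfrb (785 and 718 against 216 and 260.1, adjusted p = 0.0196), though not when any 1 of the 4 libraries was left out. Mast cell markers summed to 103 and 77.1 against 44.0 and 34.3, and erythroid markers to 75.7 and 87.7 against 79.3 and 83.0. None of 4 genes that mark the male sex passed, by limma or at an unadjusted p below 0.05 (0 genes), with a median of -0.06. For the labelled cell type, 10 pro-B cell markers summed to 46195 and 54259 in EV and 82847 and 90752 in Pax5WT. All 10 reached the minimum, Dntt in Pax5WT only, and 8 rose, with a median of 1.21. All but Ptprc are also in the pathway lists above. Their rise therefore repeats those results and is not a check of the cell type. Fewer of these markers rose when any 1 of the 4 libraries was left out, as was so over all genes.

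In 4 other lists no gene passed. None of 24 Myc and cell cycle genes passed the test (median 0.08), nor any of 12 genes of glucose and energy restriction (-0.14), 12 BCL2 family genes (-0.02) or 10 MHC class II genes (-0.32), in limma. At an unadjusted p below 0.05 there were 1 higher and 2 lower among the cell cycle genes and 3 lower among the energy genes. There were 1 higher and 2 lower in the BCL2 family and 4 lower among the MHC class II genes. Over all 12960 genes, 1890 had an unadjusted p below 0.05 in either direction, so counts of this size are common. Myc had 17026 and 12712 normalized counts in EV and 18082 and 14667 in Pax5WT, and Mki67, a marker of dividing cells, had 22792 and 22962 against 22438 and 26538. Ldha, a glycolytic enzyme gene, differed more between replicates than between groups, with 22372 and 31928 in EV and 17105 and 35142 in Pax5WT. Txnip, which restrains glucose uptake, had 9522 and 7126 against 5185 and 5937 (-0.57 ± 0.142 SE, adjusted p = 0.0853), and it passed without EV replicate 2 but not without any of the other 3 libraries.

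Of 15 adhesion and surface receptor genes, 2 rose and 1, Itgb7, fell (median -0.10). The complement regulator Cd55 was listed at 0 in both EV libraries and had 34.4 and 52.4 in Pax5WT (adjusted p = 0.000663), and Bst1, which encodes the stromal antigen BP-3, had 123 and 99.4 against 794 and 699 (2.74 ± 0.230 SE, adjusted p = 0.00118). Both rose whichever library was left out. Of 14 interferon-stimulated genes, 2 rose and none fell (median -0.34), and both were guanylate-binding protein genes. Among the 14, 4 were higher and 2 lower at an unadjusted p below 0.05, against 1890 of all 12960 genes in either direction. Gbp2 had 77.5 and 98.4 against 583 and 677 (2.83 ± 0.238 SE, adjusted p = 0.00118) and rose whichever library was left out, and Gbp3 had 497 and 394 against 1222 and 1143 (adjusted p = 0.0268) and did not pass in any of those fits. Of 14 ERK feedback and immediate early genes, 1 fell (median 0.03), the Ras pathway inhibitor Spry1 (596 and 568 against 304 and 316, adjusted p = 0.0354). Of 6 plasma cell genes, 1 fell (median 0.14), the joining chain gene Jchain (67983 and 65946 against 42233 and 36763, adjusted p = 0.0238). Spry1 and Jchain did not pass when any 1 of the 4 libraries was left out.

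With the replicate number as a block, more genes of these lists passed. Of the 22 receptor genes 9 rose and 3 fell, of the 19 B lineage transcription factors 10 rose and 1 fell, and of the 10 recombination genes 4 rose, while 665 and 672 of all 12960 genes rose and fell. Irf4, Dntt and Kit were among the genes that rose in this fit (adjusted p = 0.00634, 0.0304 and 0.0139). Of the 19 T lineage genes 2 rose and 7 fell, 5 NK and cytotoxic genes fell, 2 myeloid genes rose and 5 fell, and 1 progenitor gene rose and 4 fell. In the 4 lists where no gene had risen or fallen without the block, 2 cell cycle genes rose and 1 fell. There 3 energy genes fell, Txnip among them (adjusted p = 0.0315), 1 BCL2 family gene fell and 2 MHC class II genes fell. Of the cytokine receptor and STAT genes 2 rose and 3 fell, of the adhesion and surface receptor genes 3 rose and 4 fell, of the interferon-stimulated genes 3 rose and 1 fell, of the ERK feedback and immediate early genes 2 rose and 4 fell, and of the plasma cell genes 1 rose and 1 fell. The adhesion receptor gene Cd44, which did not pass without the block (-1.23, adjusted p = 0.0546), fell with it (adjusted p = 7.72e-05).

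Peaks of Pax5WT were then set beside the expression calls, which were made from other libraries. Peaks numbered 10646 in ChIP-seq replicate 1 and 11830 in replicate 2, and 7908 peaks of replicate 1, 74.3% of its peaks, met a peak of replicate 2, of whose peaks 66.8% were shared. Within 2000 bp of a transcript start, a shared peak was present for 49 of the 166 genes called higher (29.5%), for 2 of the 35 called lower (5.71%) and for 31.9% of the 12759 genes that were not called. The share for genes called lower rests on 2 genes, and it was 17.1% within 10000 bp, 14.3% with peaks of either replicate and 2.86% at a −log10 q of at least 5. For the 134 genes that fell by adjusted p alone it was 23.1% (31 genes). The share among genes called higher was close to that among genes not called. Where a gene had such a peak, the median of its highest fold enrichment over input was 8.19 for genes called higher and 6.28 for genes not called. At a value of 10-fold, chosen after the data were seen, 19 of the 49 genes (38.8%) and 18.1% of the genes not called had a peak at least that high. The median distance from a start to the nearest summit was 18370 bp for genes called higher, 47310 bp for genes called lower and 23356 bp for genes not called.

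**Figure D4:**
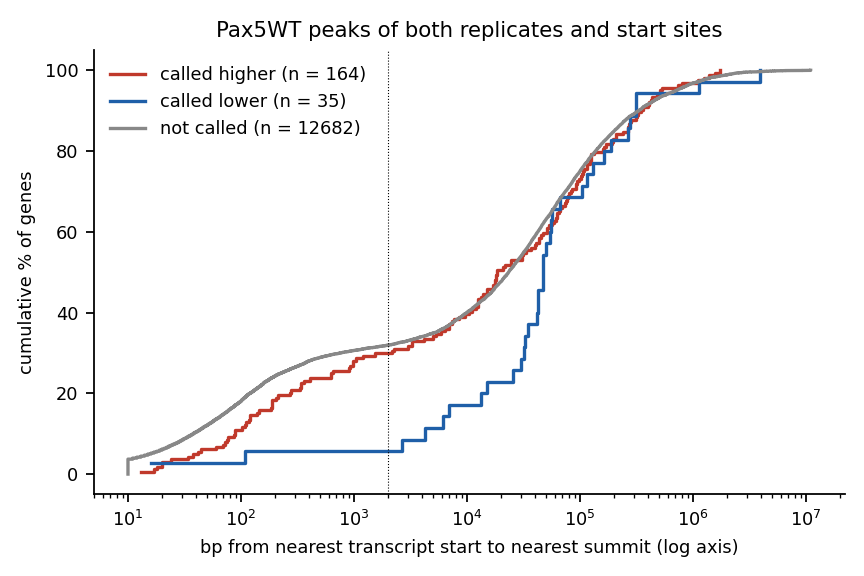
Cumulative percent of genes (y axis) against the distance in bp from a transcript start to the nearest summit of a Pax5WT peak found in both replicates (x axis, log scale, distances under 10 bp drawn at 10 bp), for genes called higher (red, n = 164), called lower (blue, n = 35) and not called (grey, n = 12682). At 2000 bp, the dotted line, the red curve is near the grey one (29.5% of 166 and 31.9% of 12759 genes), and the blue one is below both (5.71%, 2 of 35 genes, against 23.1% of the 134 genes that fell by adjusted p alone, which are not drawn as a curve).

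Among genes named here, peaks in both replicates lay close to the starts of Kcnk10 (summit 20 bp past the start, 28.9-fold and 27.1-fold), Cd79a (13 bp past the start, 12.3-fold and 24.8-fold) and Ikzf3 (72 bp past the start, 3.23-fold and 5.59-fold). In windows of 300 bp around the 7908 summits, on both strands, GCGTGAC was found in 7.17%, GCATGAC in 5.45% and either in 12.4%. The palindromic motif of Ebf factors was found in 3.54% of the windows. In 32851 RefSeq promoter windows of the same length, from all genes, the first motif was found in 2.09%, the second in 2.17%, either in 4.23% and the Ebf motif in 0.904%. In the 12236 of these windows that were matched by symbol to the 12960 genes, of which 74.1% had a match, the shares were 3.76%, 1.49%, 5.19% and 0.997%. A match is a description of the letters and not of a binding event. Of the 64 peaks near starts of genes called higher, 4 (6.25%) held either of the first 2 motifs. In the 170 promoter windows matched to genes called higher, of which 73.5% had a match, 4 (2.35%) held either. Since many genes had no match, the promoter sets are not compared.

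The other forms of Pax5 were read in the same fit, and their values stand beside those of Pax5WT because all 3 were compared with the same EV libraries. Pax5 itself had 8918 and 8963 normalized counts with Pax5K198Q and 21162 and 16609.5 with Pax5K198R. Pax5 transcript was higher with Pax5K198R than with Pax5WT (log2 fold change 1.57 ± 0.118 SE, adjusted p = 0.00290) and did not pass for Pax5K198Q against Pax5WT (0.50 ± 0.118 SE, adjusted p = 0.558). The part of this difference in dose in the values that follow was not tested. Over the 166 genes called higher the median log2 fold change against EV was 2.77 with Pax5WT, which the choice of genes raises, 2.10 with Pax5K198Q and 1.86 with Pax5K198R. Over the 35 called lower it was -1.88, -0.79 and -2.78.

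Against Pax5WT, none of the 12960 genes was called higher with Pax5K198Q and 3 were called lower, where 0.0225% of all genes tested were called and 437 of the 12960 had an unadjusted p below 0.05. The 3, named because they were so few, were Trgc2, the T cell receptor delta variable gene Trdv5 and ENSMUSG00000095612. Trgc2 had 141 and 96.5 normalized counts with Pax5K198Q against 1259.5 and 1717 with Pax5WT (-3.64, adjusted p = 0.0454). With the replicate block 3 were higher and 10 lower. Without either Pax5K198Q library or either Pax5WT library none of the 3 stayed below the threshold. With Pax5K198R 36 genes were called higher and 175 lower than with Pax5WT, where 1.6% of all genes tested were called, 0.285% as higher and 1.31% as lower. The number called lower was 40 without Pax5WT replicate 1, 12 without Pax5WT replicate 2, 323 without Pax5K198R replicate 1 and 84 without Pax5K198R replicate 2, and it was 265 with the replicate block.

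Blnk and Rag1 were higher with Pax5K198R than with Pax5WT. Blnk had 3586 and 3133 normalized counts with Pax5K198R (1.84 against Pax5WT, adjusted p = 0.0153) and Rag1 had 18291 and 18398 (1.06, adjusted p = 0.0365). Lef1 and Tcf7, which rose with Pax5WT, were lower with Pax5K198R, at 1042 and 611 for Lef1 (-1.98, adjusted p = 0.0102) and 71.9 and 51.4 for Tcf7 (-2.10, adjusted p = 0.0156). Cd7 had 82.0 and 44.4 with Pax5K198R (-1.52 against Pax5WT, adjusted p = 0.0393) and 523 and 510.3 with Pax5K198Q (1.56, adjusted p = 0.260).

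**Figure D5:**
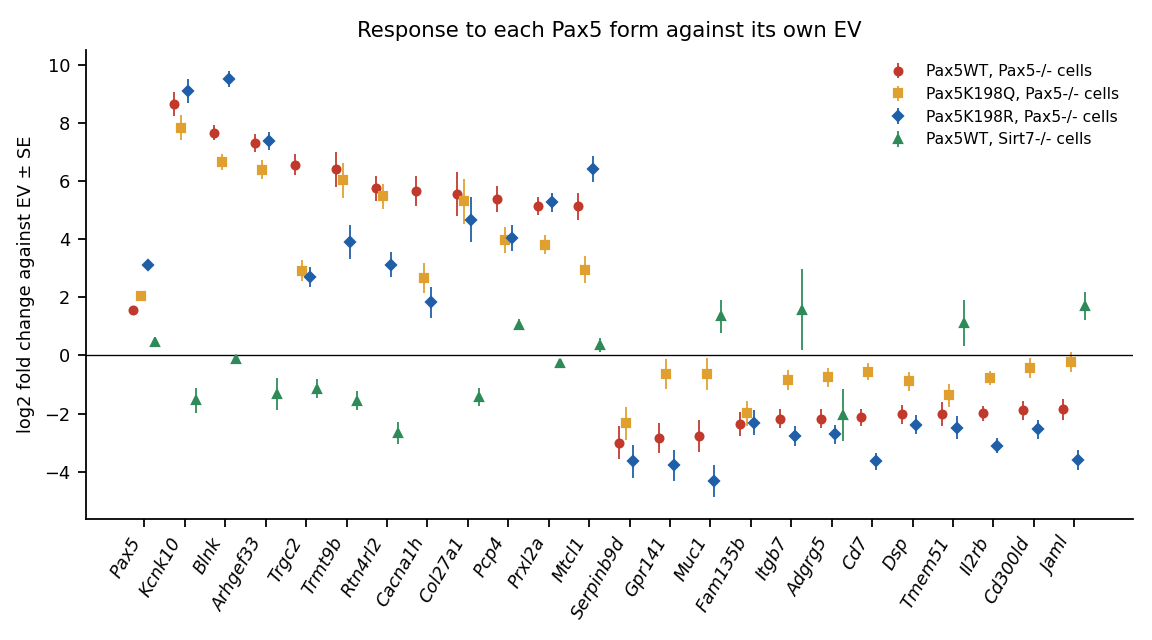
Log2 fold change against EV ± SE for Pax5 and genes chosen by size, with Pax5WT (red), Pax5K198Q (yellow) and Pax5K198R (blue) in Pax5-/- cells, which share their EV libraries, and Pax5WT in Sirt7-/- cells (green), which has EV libraries of its own and a table normalized separately. Kcnk10 lies at 8.66 in Pax5-/- cells and at -1.55 in Sirt7-/- cells, and genes without a green point were not tested there.

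Pax5WT against EV in cultured Sirt7-/- pro-B cells gave few calls without the replicate block. Of 13651 genes tested there, none was called higher and 5 were called lower (0.0366%), namely Scin, Mmp13, Xlr4b, B3galt5 and ENSMUSG00000068964, and 1353 had an unadjusted p below 0.05. With the replicate block 57 were called higher and 70 lower. Without either Sirt7-/- EV library 1 was called lower. Mmp13, a collagenase gene, went opposite ways in the 2 kinds of cell. It had 23.4 and 29.97 normalized counts with EV and 314 and 338 with Pax5WT in Pax5-/- cells (3.57, adjusted p = 0.00188). In Sirt7-/- cells it had 549 and 685 with EV and 104 and 94.7 with Pax5WT (-2.62 ± 0.213 SE, adjusted p = 0.0143), and the difference between the 2 tables was not tested. The 2 kinds of cell also differ in strain, tissue of origin and vector marker, whose part cannot be told apart from that of the genotype. Pax5 had 25995 and 37114 normalized counts with EV and 43024 and 43260 with Pax5WT (0.47 ± 0.177 SE, adjusted p = 0.426). Blnk had 12671 and 12685 with EV and 12903 and 10361 with Pax5WT. Of the genes called higher in Pax5-/- cells, 156 were tested in Sirt7-/- cells, and 59 (37.8%) were above 0 there, with a median of -0.21. Of the genes called lower, 19 were tested and 16 (84.2%) were above 0, with a median of 0.68. Of the genes not called, 46.9% were above 0.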

How the data were processed

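RNA-seq was made from polyA RNA and Pax5 ChIP-seq from the same kind of culture. Values were used as deposited. The gene tables hold normalized counts, a signal that per the labels and the study's methods the authors made with Salmon and DESeq2, so they are not read counts and the true depth is unknown. The peak lists give, per the methods and the deposited columns, a fold enrichment over input and the −log10 of the p and q values, as MACS2 called them in each replicate after Bowtie2 alignment to mm10. Versions of Salmon, DESeq2, Bowtie2 and MACS2 were not given in the sources used here.

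The 13345 genes whose value was 10 or more in 2 or more of the 8 libraries entered limma 3.58.1 in R 4.3.3, with a trended prior, and were tested on log2(normalized count + 1) in 1 fit of 4 groups of 2 libraries. Fold changes on this scale understate changes of low genes. Adjusted p-values (Benjamini-Hochberg, two-sided) cover all genes tested in the table. The table of Sirt7-/- cells was fitted separately. Peaks were shared when they overlapped by at least 1 bp and were assigned within 2000 bp of GENCODE M21 transcript starts; sequences came from GRCm38. The 16 pathway lists and 8 marker lists, the members and the tests were chosen with earlier results of these data known. Named genes were Pax5, the list genes and, in each direction, the 12 genes called with the largest change, non-overlapping groups, a mean of at least 100 in the higher group and a gene symbol that is not a clone name. The symbols Cd97 and Xist were not matched. Sequences of Kcnk10 and other windows that meet exons are not shown, and some genes that meet these rules are not reported here. The fit was tested on simulated data.

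Alternatives varied the added constant, the minimum, scaling, the trended prior, the libraries fitted, the replicate block, 1 library at a time, and the distance, overlap and q of peaks. Same-numbered libraries deviated together over genes, with r of 0.264 to 0.383 in the 6 pairs of groups of the Pax5-/- table and 0.156 to 0.428 in the 6 of the other table. The study's methods state that replicates were made on different days. They do not say that a number marks the same day in every group, so counts with the number as a block stand beside those without it.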

Additional observations from a re-analysis of the deposited data

Results flagged for a closer look

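Genes named by the rules above that passed in Pax5-/- cells were compared with Pax5WT against EV in Sirt7-/- cells. The vectors of the latter are described with another marker (GFP). Of 49 such genes present in both tables, 18 had both libraries on one side in Pax5-/- cells and on the opposite side in Sirt7-/- cells. Of the 49, 7 were higher in both and 2 lower in both. The opposite pattern was thus present in 36.7% of them, against 34.1% of the 399 genes that passed in Pax5-/- cells and were tested in both tables, and 9.94% of all 12258 genes tested in both. For genes higher in both the shares were 14.3%, 11.5% and 3.35% in the same order. For genes lower in both they were 4.08%, 6.02% and 3.86%. Each pattern needs non-overlapping libraries in Pax5-/- cells. Naming by size required this and passing the test favours it, whereas 42.6% of all genes tested in Pax5-/- cells had it. The lower shares over all genes therefore partly restate how the genes were chosen. The difference between the 2 kinds of cell was not tested, because the tables were normalized separately. The cells also differ in strain, tissue of origin and vector marker besides genotype. Without the replicate block none of the 18 had an adjusted p below 0.05 in Sirt7-/- cells (limma). With the block more genes were called in these cells, and the 18 are not reported for that fit. Mmp13, which is not among the 49, had the opposite pattern with an adjusted p below 0.05 in both kinds of cell.

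Among genes that rose in Pax5-/- cells, the log2 fold change in Sirt7-/- cells was -1.55 for Kcnk10, -1.33 for Arhgef33, -1.14 for Trgc2, -1.55 for Trmt9b, -2.67 for Rtn4rl2 and -1.43 for Col27a1. It was -0.268 for Prxl2a, -0.251 for Vpreb3, -0.173 for Ikzf3, -0.410 for Bst1 and -0.371 for Gbp3, and it was -0.630 for Tcf7 and -1.46 for Lyz2. Among genes that fell in Pax5-/- cells it was 1.35 for Muc1, 1.57 for Itgb7, 1.70 for Jaml, 0.745 for Rasgrp3 and 1.54 for Pdgfrb.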

How the results depend on the processing

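Of 58 named genes followed over 14 settings, none changed direction, and 171 of 812 values were no longer past the threshold. Arhgef33, Blnk, Bst1, Cacna1h, Cd55, Cd79a, Ebf1, Gbp2, Ikzf3, Il7r, Kcnk10, Mtcl1, Pax5, Pcp4, Prxl2a, Rag1, Rtn4rl2, Trgc2, Trmt9b and Vpreb3 were among those that passed in every one. Over all settings the log2 fold change ran from 3.88 to 7.27 for Trmt9b and from 2.40 to 6.43 for Cd55, both low in EV, against 1.74 to 2.07 for Cd79a and 1.17 to 1.40 for Ebf1. Total scaling and quantile scaling moved the median of all genes by at most 0.02. That no named gene changed direction was nearly fixed in advance. Every setting refitted the same libraries, and genes named by size had to have groups that did not overlap.

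For Pax5WT against EV, the number called lower was 17 without the minimum, 22 without the trended prior, 76 with only the libraries compared, 106 with the replicate block (213 higher) and 72 at a log2 fold change of 1. By adjusted p alone 298 and 134 passed. Leaving out 1 library gave 64 to 112 higher and 2 to 9 lower. For Pax5K198Q against Pax5WT, an added 0.5 gave 1 higher, and 7 were lower with an added 10, 1 at a minimum of 50, 7 with only the libraries compared and 10 with the block (3 higher); leaving out 1 library gave 0 to 1 higher and 0 lower. For Pax5K198R, the number lower was 109 without the minimum, 19 with only the libraries compared (14 higher) and 265 with the block; leaving out 1 library gave 8 to 32 higher and 12 to 323 lower. In Sirt7-/- cells an added 10 gave 10 lower, no trend 8 (1 higher), only the libraries compared 0 and the block 70 (57 higher); leaving out 1 library gave 0 higher and 1 to 4 lower. A higher count under the block is not a stronger effect; the cause of these differences was not tested.

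The share of genes with a peak, for genes called higher, called lower, not called and all in that order, was 39.2%, 17.1%, 40.0% and 39.9% within 10000 bp, and 41.0%, 14.3%, 50.1% and 49.9% with peaks of either replicate. It was 29.5%, 5.71%, 28.6% and 28.6% at 50% overlap, 24.7%, 2.86%, 26.5% and 26.4% at a −log10 q of 5, and 45.8%, 14.3%, 39.5% and 39.5% anywhere in the gene or 10000 bp before it, an alternative chosen after seeing the data. By adjusted p alone it was 32.6% for genes that rose, 23.1% for genes that fell and 31.9% for the others. In windows of 150 bp the motif shares were 5.45%, 4.11%, 2.49% and 9.42% (either paired-domain form), and at a −log10 q of 5 the last was 13.2%. The read depth behind the gene tables is unknown, and with 2 libraries a group small changes could be missed. The smallest log2 fold changes of Pax5WT against EV that passed were 0.41 among genes that rose and -0.46 among genes that fell.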
